A study of Arabidopsis with 8 samples.

Results

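SAG12 (AT5G45890), SEN1 (AT4G35770), WRKY53 (AT4G23810) and SAG101 (AT5G14930) are marker genes of leaf senescence, and SEN1 is also a marker of darkness. They were found by gene name among the probe sets of the Affymetrix ATH1 array, which reads Arabidopsis transcripts with groups of short probes. Each of the 4 genes, out of 13530 that could be named on the array, had 1 probe set, out of 22746 that remained after 64 Affymetrix controls were left out. SAG101 and WRKY53 were named by the platform annotation. SAG12 and SEN1 were named only through the study's list of differentially expressed genes, which was made from these arrays, so that at least 1 call for each of them was fixed by the naming. The symbol SEN1 is also used for AT3G45590, which is another gene and was not used here.

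All plants were of the Col-0 ecotype, and leaf RNA was taken from 4 groups with 2 arrays each. The WT control and nNOS control plants were well watered, and the WT drought and nNOS drought plants were deprived of water in soil from an age of 2 weeks. The nNOS transgenic plants expressed mammalian neuronal nitric oxide synthase from the CaMV 35S promoter, which is active in most plant tissues, and the WT carried no transgene. The time without water is 7 d in the methods and 14 d in the sample labels. The methods describe RNA of 2 transgenic lines pooled, whereas the labels name a single line for the extraction. A sample pooled leaves from at least 20 seedlings. No source used here says that the samples of a group were grown separately, so the spread behind the p-values may be technical. In the limma fit that spread was pooled over the 4 groups and drawn toward that of all probe sets. The median SD of all probe sets ran from 0.0599 in WT drought to 0.1188 in nNOS control. In whole leaves, fewer cells of a type and less RNA per cell cannot be told apart.

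Leaf senescence is the ordered dismantling of the leaf, in which chloroplasts and proteins are degraded and their nitrogen is moved to growing organs. Age, drought, darkness, lack of sugar and the hormones ethylene, abscisic acid, jasmonate and salicylic acid bring it forward, whereas cytokinin delays it. SAG12 encodes a papain-like cysteine protease of senescence-associated vacuoles and is a marker of the late, age-related programme. WRKY53 encodes a transcription factor that acts early and promotes senescence, SAG101 encodes a lipase-like protein that also works with EDS1 in immunity, and SEN1 encodes a sulfurtransferase-domain protein whose transcript accumulates in darkened leaves and is lowered by sugar.

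The arrays carried leaf RNA, with log2 signals of 12.85 to 13.11 for RCA (Rubisco activase) and 13.06 to 13.47 for LHCB4.1 (a light-harvesting protein) on every array. These 2 were the leaf markers, out of 11 listed, with a probe set named by the annotation. Of 12 listed markers of flower, seed and root, 2 were named, and PYK10 (a root beta-glucosidase) was at 7.40 to 7.92 while EXPA7 (a root hair expansin) was at 2.99 to 3.94. The median signal of an array was 4.92 to 5.08. The 24 poly-A spike-in control probe sets averaged 8.98 and 9.40 on the nNOS control arrays against 6.04 to 6.88 on the other arrays, and the 18 hybridization controls averaged 9.93 and 10.32 against 8.82 to 9.19. The GAPDH probe sets for the 3′ and 5′ ends of the transcript differed by 0.10 to 0.28 on drought arrays and by 0.37 to 0.68 on control arrays. The part of these differences in the results was not tested.

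Drought moved SAG12 and SEN1 in opposite directions in both genotypes. SAG12 rose and SEN1 fell, each by more than 1 on the log2 scale, and both shifts were numerically larger in nNOS transgenic plants. Without drought, SAG12 was lower in nNOS transgenic plants than in the WT, and SEN1 differed by 0.12 (95% confidence interval −0.13 to 0.37). WRKY53 fell under drought in nNOS transgenic plants, and SAG101 differed by at most 0.51 between any group means.

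A probe set was called when its adjusted p from limma was at most 0.05 and its log2 fold change was at least 1 in size, the limits named in the study's methods, where adjustment of the p is not stated. A difference is termed significant where the adjusted p alone was at most 0.05. In WT drought versus WT control, 2 of the 4 genes were called (SAG12 and SEN1), while 0.677% of all probe sets were. The same 2 genes were called in nNOS drought versus nNOS control, where 1.97% of all probe sets were called. Between the well-watered groups, 1 of the 4 genes was called (SAG12), beside 2.15% of all probe sets. Between the drought groups, limma called 0 of the 4 genes and 0.0879% of all probe sets. By the adjusted p alone, 3 of the 4 genes differed significantly there, and the same 3 had an unadjusted p of at most 0.05, while 10.7% of all probe sets were significant. For the interaction, which is the nNOS response to drought minus the WT response, 1 of the 4 genes was called (SEN1), beside 0.747% of all probe sets, and 3.64% of them were significant. Since the naming of SAG12 and SEN1 required a call, these counts are descriptions. The comparisons share arrays: both control groups enter the drought comparison of their genotype as well as nNOS control versus WT control.

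**Figure D1:**
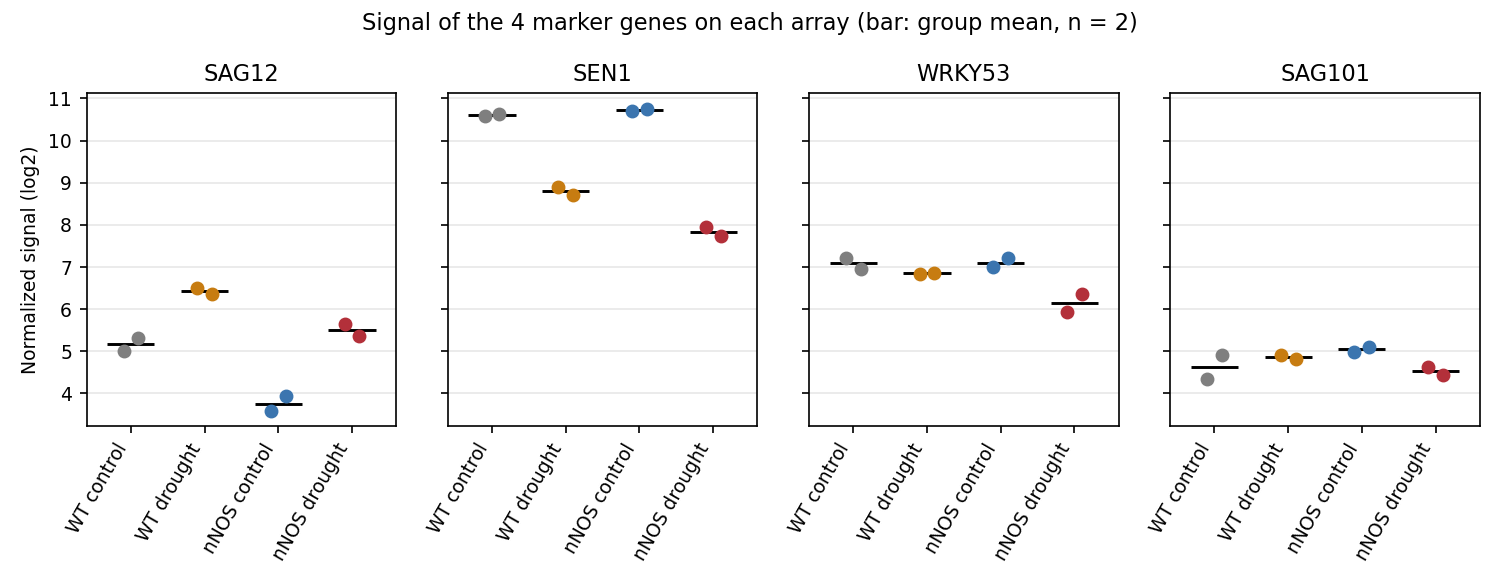
Normalized log2 signal (vertical axis) of each of the 4 marker genes on the 8 arrays, with 1 point per array, 4 groups along the horizontal axis and a bar at the mean of the 2 arrays. SAG12 ran from 3.59 on an nNOS control array to 6.50 on a WT drought array, and SEN1 from 7.74 on an nNOS drought array to 10.76 on an nNOS control array; the signals of different probe sets are not comparable with each other.

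SAG12, the protease marker of late senescence, was measured at log2 signals of 5.01 and 5.32 on the WT control arrays, 6.50 and 6.37 on the WT drought arrays, 3.59 and 3.93 on the nNOS control arrays, and 5.65 and 5.37 on the nNOS drought arrays. The nNOS control arrays were the lowest and the WT drought arrays the highest, and no 2 groups overlapped. Group means were 5.17 ± 0.22 (SD, n = 2) in WT control, 6.43 ± 0.10 in WT drought, 3.76 ± 0.24 in nNOS control and 5.51 ± 0.20 in nNOS drought.

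SAG12 was 2.41-fold higher in WT drought than in WT control (log2 fold change 1.27, SE 0.154, 95% confidence interval 0.93 to 1.61, limma adjusted p = 0.000898), a call that was lost without moderation of the variances (adjusted p = 0.0686) and kept in the other 16 alternatives, whose lowest adjusted p was 2.29e-05. This was the 31st largest rise among all probe sets. In nNOS transgenic plants, SAG12 was 3.37-fold higher under drought (log2 fold change 1.75, interval 1.41 to 2.09, limma adjusted p = 4.1e-05), the 23rd largest rise. The larger rise in nNOS transgenic plants was not distinguishable from the rise in the WT after adjustment: the difference between the responses was 0.48 on the log2 scale (interval 0.00 to 0.97, unadjusted p = 0.0488, limma adjusted p = 0.257).

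Under control conditions, SAG12 was 2.65-fold lower in nNOS transgenic plants than in the WT, with a log2 difference of −1.41 (SE 0.154, interval −1.75 to −1.07, limma adjusted p = 0.000153). It was the 36th largest fall of that comparison, whose nNOS control arrays carried the high spike-in controls given above. Without either of these 2 arrays the difference was −1.58 or −1.24, and SAG12 was still called. On these arrays SAG12 stood at the 31.9th and 36.2nd percentile of the signals, near the lower quartile of 2.94 to 3.24 on an array, and the values carry no detection call. Under drought it was lower in nNOS transgenic plants by a log2 difference of −0.92 (interval −1.26 to −0.58, limma adjusted p = 0.0103). This was short of the fold threshold, which it passed without nNOS drought replicate 1 (−1.06, adjusted p = 0.0474), and it was no longer significant without nNOS drought replicate 2 (−0.78, adjusted p = 0.0865), WT drought replicate 1 (−0.85, 0.124) or WT drought replicate 2 (−0.99, 0.0612).

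The order of the groups for SAG12 was therefore nNOS control, WT control, nNOS drought and WT drought. The neighbours in the middle did not differ significantly, with nNOS drought 0.35 above WT control on the log2 scale (interval 0.01 to 0.69, limma adjusted p = 0.16). The ends of the order lay 2.68 apart.

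Under drought in nNOS transgenic plants, most of the other cysteine proteases read here rose as SAG12 did, but by less. They are papain-like enzymes and vacuolar processing enzymes, many of which work in lytic vacuoles. Of 20 listed genes, 10 had a probe set named by the annotation. Of the 10, 3 rose significantly in WT drought versus WT control, beside 5.97% of all probe sets that rose, and none fell significantly. In nNOS drought versus nNOS control, 6 of the 10 rose and 1 fell significantly, beside 14.0% and 10.8% of all probe sets. The median log2 fold change of the 10 was 0.33 in WT plants and 0.59 in the transgenic plants, where the medians of all probe sets were −0.04 and −0.02. The count in the WT was 1 without WT drought replicate 1 and 5 without either nNOS control array. The 3 cathepsin B-like proteases have similar sequences, and signal shared between their probe sets was not tested.

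GAMMAVPE, a vacuolar processing enzyme that matures other proteases, was at 10.50 and 10.47 on the WT control arrays and at 11.45 and 11.42 on the WT drought arrays. It was at 10.59 and 10.40 on the nNOS control arrays and at 11.05 and 11.08 on the nNOS drought arrays. Every drought array was above every control array, with log2 fold changes of 0.95 in the WT (limma adjusted p = 0.000525) and 0.57 in nNOS transgenic plants (0.00303). RD19C, of the RD19 family first described as dehydration-responsive, rose by 0.67 (adjusted p = 0.00409) and 0.64 (0.00156). RD19B of the same family fell by 0.63 in nNOS transgenic plants (limma adjusted p = 0.0166), and its value in the WT was 0.03 (0.921).

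CTB3, a cathepsin B-like protease, was at 9.28 and 9.25 on the WT control arrays, 9.73 and 9.70 on the WT drought arrays, 8.59 and 8.28 on the nNOS control arrays, and 8.99 and 9.24 on the nNOS drought arrays. The nNOS control arrays were the lowest and the WT drought arrays the highest, as for SAG12, while nNOS drought lay just below WT control. Its differences were 0.45 in WT drought versus WT control (limma adjusted p = 0.0512) and 0.68 in nNOS drought versus nNOS control (0.0036). It was lower in nNOS transgenic plants under control conditions (−0.83, adjusted p = 0.000961) and under drought (−0.60, adjusted p = 0.0211). CTB1, CTB2 and the aleurain-like ALP2 were also lower in well-watered nNOS transgenic plants than in the WT, by −0.65, −0.45 and −0.65 (limma adjusted p of 0.00441, 0.0144 and 0.00156), while RD19B was higher by 0.73 (0.00685).

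In nNOS control versus WT control, these made 4 proteases lower and 1 higher of the 10, beside 17.9% and 13.0% of all probe sets. In nNOS drought versus WT drought 2 were lower (CTB3 and GAMMAVPE, the latter by −0.37 with an adjusted p of 0.0497), beside 7.0% of all probe sets; this count was 0 without any 1 of the 4 drought arrays and 1 without either WT control array. For the difference between the drought responses, the limma adjusted p-values of the 10 proteases ran from 0.14 to 0.95. RDL1, ALPHAVPE and AT1G06260 differed significantly in none of the 4 comparisons of groups. RDL1 (2.46 to 2.84) lay below and ALPHAVPE (2.95 to 3.49) near the lower quartile of 2.94 to 3.24 on an array, where a change may go unseen.

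**Figure D2:**
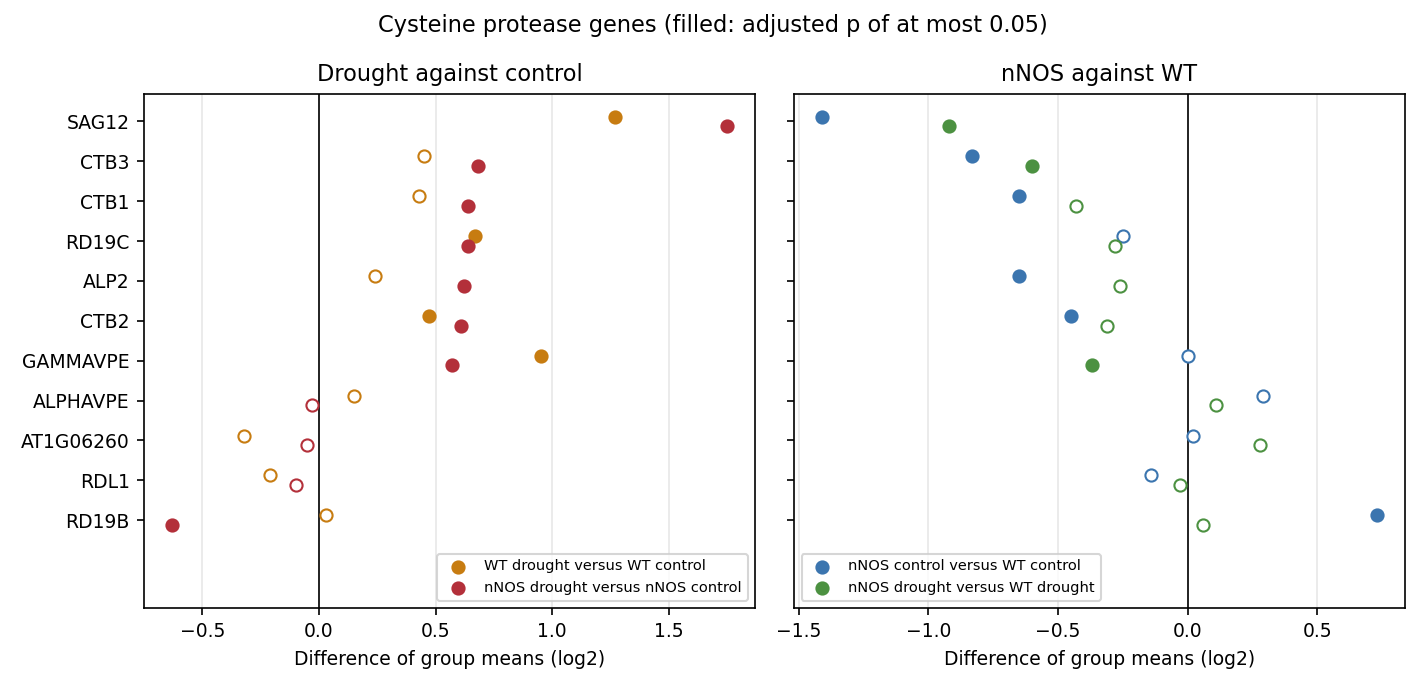
Log2 differences of group means (horizontal axis) for SAG12 and the 10 other cysteine protease genes named by the annotation (rows), with drought against control on the left and nNOS against WT on the right; filled points had a limma adjusted p of at most 0.05. CTB3, CTB1, CTB2 and ALP2 lie at −0.83 to −0.45 in nNOS control versus WT control, on the same side of 0 as SAG12 at −1.41, and RD19B lies at 0.73.

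SEN1, the darkness marker, was at 10.59 and 10.63 on the WT control arrays, 8.89 and 8.72 on the WT drought arrays, 10.70 and 10.76 on the nNOS control arrays, and 7.94 and 7.74 on the nNOS drought arrays. The well-watered arrays lay together at the top, the WT drought arrays below them and the nNOS drought arrays lowest, with no overlap between groups. Group means were 10.61 ± 0.03 (SD, n = 2) in WT control, 8.80 ± 0.12 in WT drought, 10.73 ± 0.04 in nNOS control and 7.84 ± 0.14 in nNOS drought.

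Under drought SEN1 was 3.50-fold lower in the WT, a log2 fold change of −1.81 (SE 0.112, 95% confidence interval −2.05 to −1.56, limma adjusted p = 8.02e-06), the 12th largest fall among all probe sets. It was 7.41-fold lower in nNOS transgenic plants, a log2 fold change of −2.89 (SE 0.112, interval −3.14 to −2.64, limma adjusted p = 1.3e-07), the 5th largest fall. These calls held in each of the 17 alternative analyses run for each comparison, with ranges of −1.89 to −1.72 and −2.99 to −2.79. Only another normalization or the loss of an array of the comparison could move the difference. The other alternatives could change only its adjusted p.

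The fall of SEN1 was deeper in nNOS transgenic plants, by a difference between the responses of −1.08 on the log2 scale (SE 0.159, interval −1.43 to −0.73, limma adjusted p = 0.00789). Without WT drought replicate 1 this difference was −1.0 and no longer significant, at an adjusted p of 0.053, without nNOS drought replicate 2 it was −0.98, short of the fold threshold (adjusted p = 0.0431), and over 16 alternatives the adjusted p ran from 2.13e-05 to 0.0792. The drought arrays differed in the same direction: SEN1 was 1.95-fold lower in nNOS drought than in WT drought, a log2 difference of −0.96 (interval −1.21 to −0.71, limma adjusted p = 0.00647), the 28th largest fall there. It was short of the fold threshold, which it passed without nNOS drought replicate 1 (−1.06, adjusted p = 0.0472), and it was no longer significant without nNOS drought replicate 2 (−0.86, adjusted p = 0.0554), WT drought replicate 1 (−0.88, 0.109) or WT drought replicate 2 (−1.04, 0.0502). Between the well-watered groups the adjusted p was 0.442. The order was thus nNOS drought, WT drought, WT control and nNOS control, of which the last neighbours did not differ significantly.

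**Figure D3:**
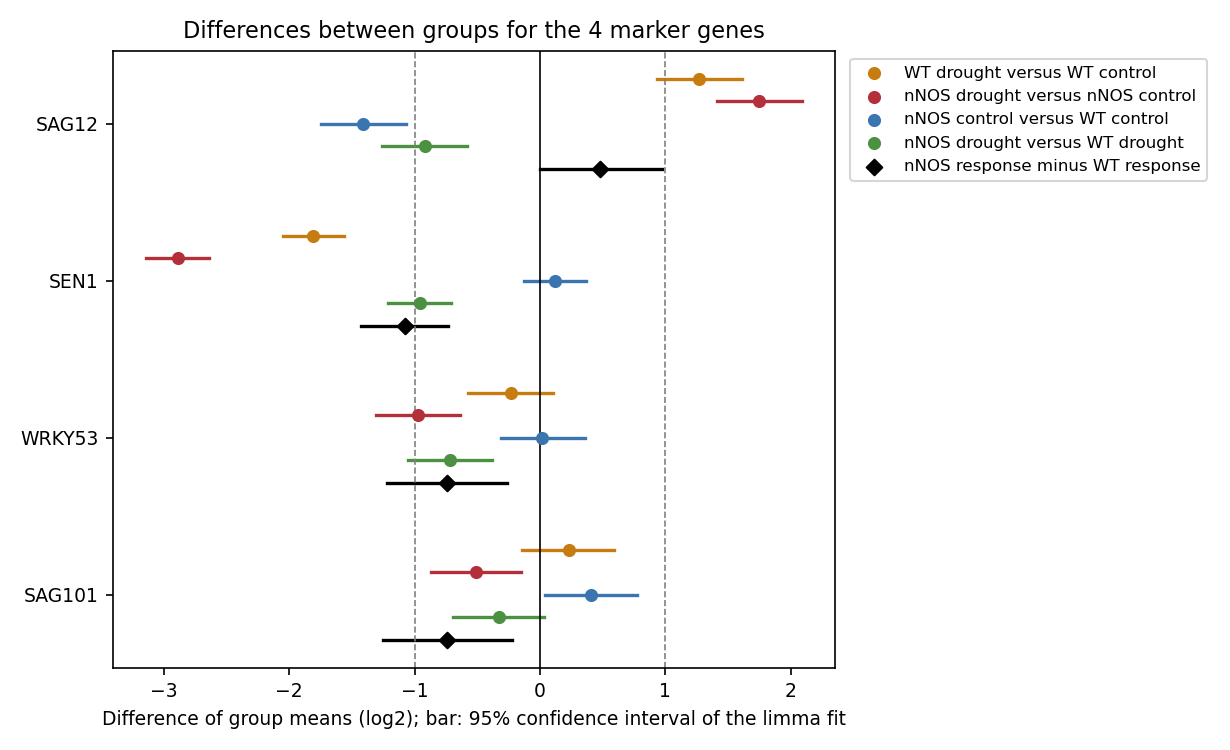
Differences of group means in log2 units (horizontal axis) with 95% confidence intervals from limma for the 4 marker genes (rows), in the 4 comparisons of groups (circles) and for the nNOS drought response minus the WT drought response (diamonds); dashed lines mark a log2 difference of 1 in size. SEN1 has the drought differences farthest from 0 (−1.81 and −2.89) among the 4 genes, and its diamond lies at −1.08.

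Genes known for induction by darkness or lack of sugar were read beside SEN1. Of 25 listed, 7 had a probe set named by the annotation, and DIN11 and BZIP63 were named through the study's list only and are examples outside the counts. In WT drought versus WT control 1 of the 7 fell significantly, and none rose significantly, beside 4.92% and 5.97% of all probe sets. In nNOS drought versus nNOS control 3 fell and 1 rose, beside 10.8% and 14.0%. The median log2 fold changes of the 7 were −0.01 in WT plants and 0.10 in the transgenic plants, beside −0.04 and −0.02 for all probe sets. These counts moved with single arrays: the fall in the WT was significant for 2 genes without either nNOS control array and for none without any other array, and 1 of the 3 falls in nNOS transgenic plants was left without either nNOS drought array. The rise in nNOS transgenic plants, that of ETFQO, was significant without either WT control array or nNOS control replicate 1 and not without any other array.

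AKINBETA1, a beta subunit of the energy-sensing kinase SnRK1, was at 8.97 and 9.01 on the WT control arrays, 8.61 and 8.68 on the WT drought arrays, 9.77 and 9.77 on the nNOS control arrays, and 8.84 and 8.82 on the nNOS drought arrays. Its nNOS control arrays lay above all others, and its drought arrays below the control arrays of the same genotype. It fell by 0.34 in the WT (limma adjusted p = 0.0487) and by 0.94 in nNOS transgenic plants (0.000119), and the difference between the responses was −0.60 (0.0429). In nNOS control versus WT control it was higher by 0.78 (0.00029).

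BZIP63, a transcription factor that SnRK1 phosphorylates, fell by 0.94 in the WT (limma adjusted p = 0.000624) and fell by 1.12 in nNOS transgenic plants (6.79e-05). DIN11, a dioxygenase gene of the dark-inducible set, showed another pattern. Its signals were 5.76 and 5.83 in WT control, 4.70 and 4.58 in WT drought, 4.09 and 4.07 in nNOS control, and 4.25 and 3.78 in nNOS drought. The WT control arrays were the highest, and the nNOS arrays were all below the WT arrays. DIN11 fell by 1.15 under drought in the WT (limma adjusted p = 0.00106), its value in nNOS transgenic plants was −0.06 (0.792), and the difference between the responses was 1.09 (0.0184).

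Enzymes that break down branched-chain amino acids and lysine when sugar is short were also on the list. IVD (isovaleryl-CoA dehydrogenase) fell by 0.52 in nNOS drought versus nNOS control (limma adjusted p = 0.0205), and MCCA (a subunit of methylcrotonyl-CoA carboxylase) fell by 0.52 (0.031), while ETFQO (which passes their electrons to the respiratory chain) rose by 0.38 (0.0272). Of the 7 genes, 3 were lower and 1 was higher in nNOS control versus WT control, beside 17.9% and 13.0% of all probe sets. The lower ones were D2HGDH (−0.78, adjusted p = 0.00495), BZIP53 (−0.73, 0.000487) and ETFQO (−0.36, 0.028). Under drought, 2 were lower in nNOS transgenic plants than in the WT, IVD by −0.87 (0.00958) and D2HGDH by −0.86 (0.0141), beside 7.0% of all probe sets. Without WT control replicate 2 the 3 lower genes under control became 1, and without nNOS drought replicate 2 or WT drought replicate 1 the 2 under drought became 0.

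WRKY53, the early regulator, was at 7.22 and 6.95 on the WT control arrays, 6.84 and 6.86 on the WT drought arrays, 7.0 and 7.21 on the nNOS control arrays, and 5.93 and 6.35 on the nNOS drought arrays. The nNOS drought arrays were the lowest, the WT drought arrays lay just below the well-watered arrays, and the well-watered groups overlapped. Group means were 7.09 ± 0.19 (SD, n = 2) in WT control, 6.85 ± 0.01 in WT drought, 7.11 ± 0.15 in nNOS control and 6.14 ± 0.30 in nNOS drought.

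WRKY53 fell by 0.97 on the log2 scale in nNOS drought versus nNOS control (SE 0.152, 95% confidence interval −1.31 to −0.64, limma adjusted p = 0.00124), just short of the fold threshold. Quantile normalization, median centring and cyclic loess normalization placed it just past that threshold, at −1.06, −1.01 and −1.13, as did leaving out nNOS control replicate 1 (−1.08) or nNOS drought replicate 2 (−1.18). In the WT the drought difference was −0.23 (interval −0.57 to 0.10, limma adjusted p = 0.343). The difference between the responses, −0.74 (interval −1.22 to −0.26), had an unadjusted p of 0.00579 and a limma adjusted p of 0.0848, so the genotypes were not distinguished after adjustment.

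WRKY53 was lower in nNOS drought than in WT drought by a log2 difference of −0.72 (interval −1.05 to −0.38, limma adjusted p = 0.0194). It was no longer significant without either nNOS drought array (−0.51 with an adjusted p of 0.0987, and −0.93 with 0.0554) and without either WT drought array (−0.73 with 0.161, and −0.71 with 0.0963). Between the well-watered groups the difference was 0.02 (interval −0.31 to 0.36, limma adjusted p = 0.925). From lowest to highest the order was nNOS drought, WT drought, WT control and nNOS control, and only the lowest pair of neighbours differed significantly.

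None of the 12 listed group III WRKY genes, the subfamily of WRKY53, had a probe set named here, so 5 WRKY genes of other groups that the annotation names were read in their place; these were picked after their values had been seen. WRKY22, which takes part in dark-induced senescence, fell in both genotypes, with log2 signals of 6.74 and 6.47 in WT control, 5.68 and 5.82 in WT drought, 7.02 and 7.21 in nNOS control, and 5.94 and 6.0 in nNOS drought. Drought and control arrays did not overlap in either genotype, and the log2 fold changes were −0.85 (limma adjusted p = 0.00289) and −1.14 (0.000155). WRKY47 rose by 0.60 in the WT (0.0151) and had a value of −0.31 in nNOS transgenic plants (0.101), with a difference between the responses of −0.91 (0.0225). For WRKY6, WRKY20 and WRKY42 no comparison of groups was significant. WRKY42, at 2.68 to 3.27, was near the lower quartile of 2.94 to 3.24 on an array.

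Few other regulators of senescence could be read. Of 23 listed, 3 had a probe set named by the annotation: WRKY6, WRKY22 and EIN3. EIN3, a transcription factor of ethylene signalling that promotes senescence, was at 8.31 and 8.42 in WT control, 8.49 and 8.53 in WT drought, 8.25 and 8.00 in nNOS control, and 7.85 and 7.84 in nNOS drought. The nNOS drought arrays were the lowest, and in nNOS drought versus WT drought EIN3 was lower by −0.67 (limma adjusted p = 0.0111). JUB1, a NAC factor that delays senescence and is named through the study's list only, was at 3.08 and 2.93 in WT control, 4.13 and 3.95 in WT drought, 3.29 and 3.59 in nNOS control, and 3.33 and 3.33 in nNOS drought. Its WT drought arrays stood above all others, which at 2.93 to 3.59 were near the lower quartile of 2.94 to 3.24 on an array. JUB1 rose by 1.04 in the WT (limma adjusted p = 0.000926) with a value of −0.11 in nNOS transgenic plants (0.575), and the difference between the responses was −1.14 (0.01).

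SAG101, the lipase-like protein, was at 4.35 and 4.92 on the WT control arrays, 4.91 and 4.82 on the WT drought arrays, 4.99 and 5.10 on the nNOS control arrays, and 4.63 and 4.44 on the nNOS drought arrays. The WT control arrays spanned both WT drought and nNOS drought values, and their SD of 0.40 exceeded that of 99.3% of probe sets in that group. Group means were 4.64 ± 0.40 (SD, n = 2) in WT control, 4.87 ± 0.06 in WT drought, 5.05 ± 0.08 in nNOS control and 4.54 ± 0.14 in nNOS drought.

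SAG101 fell by 0.51 on the log2 scale in nNOS drought versus nNOS control (SE 0.165, 95% confidence interval −0.87 to −0.15, limma adjusted p = 0.0446), a 1.42-fold difference. It was no longer significant without each of the nNOS arrays and each of the WT drought arrays, with differences of −0.61 to −0.41, and was significant in 7 of 16 alternatives. The other comparisons were not significant: 0.23 in WT drought versus WT control (adjusted p = 0.394), 0.41 in nNOS control versus WT control (0.0848) and −0.33 in nNOS drought versus WT drought (0.204). The value in the WT turned to −0.06 without WT control replicate 1, and that in nNOS control versus WT control ran from 0.12 to 0.69 without 1 or the other WT control array, with an adjusted p of 0.0105 for the higher value. The difference between the responses was −0.74 (interval −1.25 to −0.22, limma adjusted p = 0.108), and −1.02 without WT control replicate 2 (adjusted p = 0.041). From lowest to highest the groups were nNOS drought, WT control, WT drought and nNOS control, and no neighbours differed significantly (adjusted p of 0.744, 0.394 and 0.381).

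SAG101 works in immunity with EDS1, which itself also acts upstream of salicylic acid, a hormone that promotes senescence. Of 21 listed genes of this pathway, the annotation named 1, EDS1B, a copy so close to EDS1 that its probe set may read both. EDS1B was at 3.24 and 3.48 in WT control, 4.69 and 4.50 in WT drought, 4.00 and 3.52 in nNOS control, and 3.94 and 3.73 in nNOS drought. The WT drought arrays were above all others. It rose by 1.24 in the WT (limma adjusted p = 0.00148), its value in nNOS transgenic plants was 0.07 (0.779), and the difference between the responses was −1.17 (0.0226). In nNOS drought versus WT drought EDS1B was lower by −0.76 (0.0195).

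The other 6 genes of this pathway are examples named through the study's list. PBS3 and FMO1, enzymes that make salicylic acid and N-hydroxypipecolic acid, rose by 1.17 and 1.27 in the WT (limma adjusted p of 0.00111 and 0.00291) and by 0.81 and 0.85 in nNOS transgenic plants (0.00281 and 0.00753). On the control arrays FMO1 was at 2.45 to 2.92, below the lower quartile of 2.94 to 3.24 on an array. Its WT drought arrays were at 4.41 and 3.84, so its fold sizes are uncertain. SARD1, a transcription factor of salicylic acid synthesis, rose by 1.09 (0.000433) and 0.45 (0.0178). DLO1, which hydroxylates salicylic acid, rose by 0.84 (0.00317) and 1.17 (0.000136). The difference between the responses was not significant for PBS3, FMO1, SARD1 or DLO1 (limma adjusted p of 0.382, 0.428, 0.0617 and 0.34). In nNOS drought versus WT drought, PBS3, FMO1 and SARD1 were lower by −0.65 (0.0233), −0.69 (0.0425) and −0.86 (0.00767). DLO1 had a value of −0.28 there (0.165).

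PR2 and PR5, the classical defence proteins downstream of salicylic acid, were high on the drought arrays of both genotypes. PR2 was at 9.63 and 9.61 in WT control, 10.37 and 10.31 in WT drought, 9.18 and 8.97 in nNOS control, and 10.40 and 10.25 in nNOS drought. The drought arrays of the genotypes overlapped, while the nNOS control arrays were the lowest. PR2 rose by 0.72 in the WT (limma adjusted p = 0.00384) and by 1.25 in nNOS transgenic plants (4.4e-05), and PR5 by 0.83 (0.00233) and 1.22 (6.61e-05). Both were lower in well-watered nNOS transgenic plants than in the WT, by −0.55 (0.00409) and −0.39 (0.0269). For neither gene was the difference between the responses significant (limma adjusted p of 0.0881 and 0.222).

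**Figure D4:**
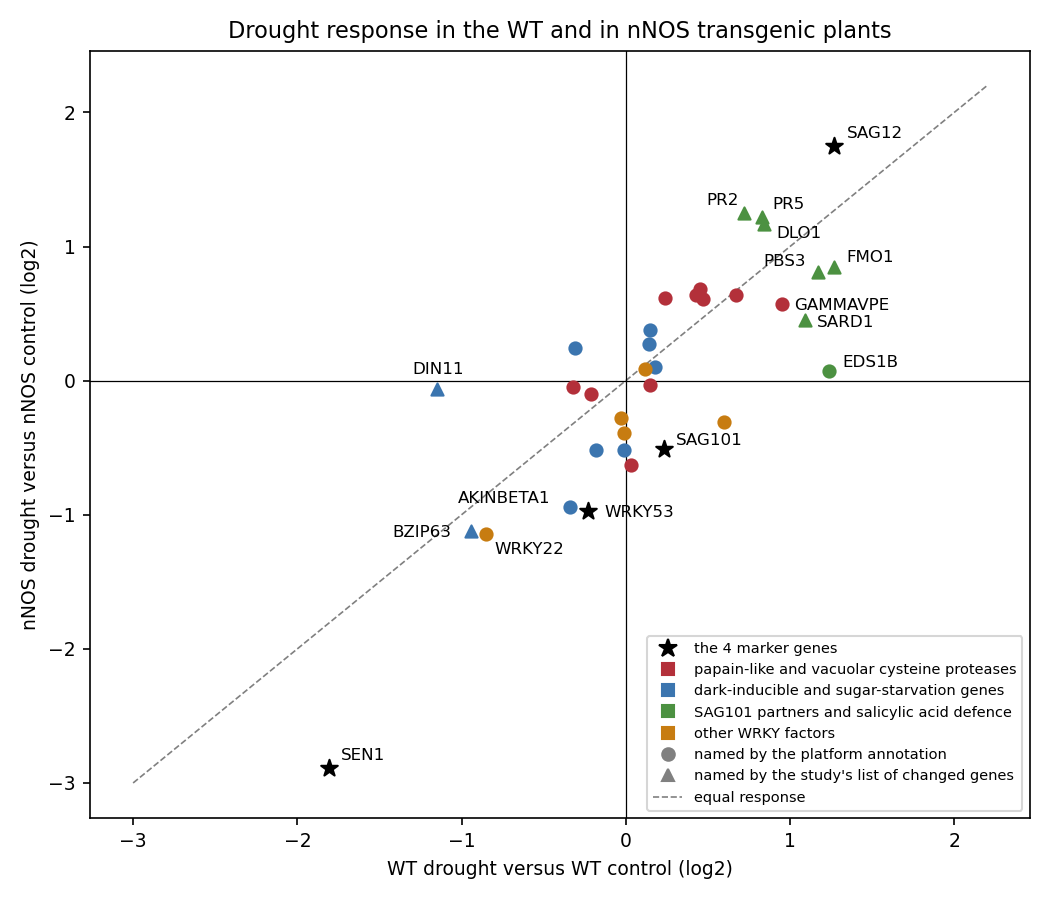
Log2 fold change under drought in the WT (horizontal axis) and in nNOS transgenic plants (vertical axis) for the 4 marker genes (stars) and genes of 4 lists, with circles for genes named by the annotation and triangles for genes named through the study's list; the dashed line marks equal responses. SAG12 (1.27 and 1.75) lies above that line, and SEN1 (−1.81 and −2.89), WRKY53 (−0.23 and −0.97), SAG101 (0.23 and −0.51) and EDS1B (1.24 and 0.07) lie below it.

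Other senescence-associated genes were read where they could be named. Of 20 listed, the annotation named 1, SWEET15 (SAG29), a sugar transporter, which rose by 0.57 in nNOS drought versus nNOS control (limma adjusted p = 0.0469) with a value of 0.34 in the WT (0.259). RNS1 and YLS9 were named through the study's list. RNS1, a ribonuclease, was at 4.22 and 4.39 in WT control, 3.40 and 3.40 in WT drought, 5.68 and 5.69 in nNOS control, and 3.02 and 3.76 in nNOS drought. Its nNOS control arrays stood above all others, 1.38 above WT control (limma adjusted p = 0.000486), and the fall under drought was −0.91 in WT plants (0.0151) and −2.30 in the transgenic plants (2.72e-05). YLS9, first found in yellowing leaves, was at 4.54 and 4.81 in WT control and between 5.77 and 6.10 on every other array, and rose by 1.3 under drought in the WT (0.000233). Of 10 genes of chlorophyll breakdown, NOL, which reduces chlorophyll b, was the one named, and it was lower in nNOS control than in WT control (−0.59, 0.00382) and rose under drought in nNOS transgenic plants (0.51, 0.0108).

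The probe sets whose pattern was most like that of each marker were sought among 1016 probe sets of 1 named gene whose group means spanned at least 1, by Pearson's r over the 8 arrays. These correlations mostly follow the differences between the 4 groups, since the arrays of a group are alike. The pool included genes named only through the study's list, which are there because they changed on these arrays. Their likeness to a marker is therefore partly built in. COR15B, which encodes a cold- and drought-induced chloroplast protein, came closest to SAG12 (r = 0.989), with group means of 11.90 in WT control, 12.29 in WT drought, 11.26 in nNOS control and 11.92 in nNOS drought. It was followed by the chitinase gene CHI (AT2G43570, r = 0.988), AT1G72900 (0.987), AT5G07950 (0.986) and AT4G33700 (0.985). CHI had group means of 7.50 in WT control, 8.28 in WT drought, 6.61 in nNOS control and 7.76 in nNOS drought, in the order found for SAG12.

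For SEN1 the closest were UPI, a serine protease inhibitor (r = 0.993), AT1G52200 (0.991), the auxin response repressor IAA29 (0.990), AT1G29500 (0.990) and AT5G28630 (0.989). IAA29 had group means of 7.71 in WT control, 6.60 in WT drought, 8.07 in nNOS control and 5.93 in nNOS drought, which again placed nNOS drought lowest. For WRKY53 they were PKS2, a phytochrome signalling protein (0.968), the growth regulator HBI1 (0.954), bZIP3 (0.918), IAA1 (0.917) and BGAL4 (0.912). PKS2 fell from 9.07 in WT control to 8.69 in WT drought and from 8.87 in nNOS control to 7.84 in nNOS drought. SAG101, whose own group means spanned 0.51, had looser neighbours, namely AT5G64190 (0.842), AT5G52760 (0.824), the peptide transporter gene PTR3 (0.798), NIMIN1, which binds the salicylic acid receptor NPR1 (0.776), and AT5G26731 (0.763). UPI, AT1G29500, PTR3, NIMIN1 and every gene given for WRKY53 were named only through the study's list.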

How the data were processed

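The authors hybridized leaf RNA to 8 ATH1 arrays, and the deposited values are their normalized log2 signals, 1.47 to 13.75. The normalization is not given in the sources used here; the paper's methods name affylmGUI. Of 22746 probe sets, 13436 were named with 1 gene by the platform annotation and 244 more by the study's list of differentially expressed genes, of which 567 entries were at hand; 503 had several genes and 8563 no name. Among the genes read beside the markers, names from that list served as examples and were not counted. SAG12 and SEN1, named only through that list, were counted among the marker genes. Names from that list also entered the pool searched for probe sets with a pattern like that of a marker.

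A limma model (limma 3.58.1, R 4.3.3) with 4 group means was fitted to the 8 arrays and moderated with eBayes. P-values were adjusted (Benjamini-Hochberg) over all 22810 probe sets, controls included. Procedures were tested on simulated data. Members and lists were chosen with earlier results of these data known. The named genes are the 4 markers, list genes called in any comparison of groups plus up to 4 others per list past the adjusted p, and the 5 most similar probe sets per marker. The other proteases (ALP2, CTB1, CTB2, RDL1, ALPHAVPE, AT1G06260), MCCA, ETFQO, and the WRKY genes of other groups were named after their values were seen. Alternatives were other normalizations, a filter on signal, 4 arrays only, eBayes with trend and robust, no moderation, array weights, other thresholds, a replicate block, and each array left out. The 2 arrays per group limit the precision. Fold-change and p-value columns of the study's list were not used. No sequences are printed, and coordinates were not used here.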

Additional observations from a re-analysis of the deposited data

Results flagged for a closer look

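For these genes the drought response differed between the genotypes by the interaction term of the limma fit (adjusted p of at most 0.05 over all probe sets), as nNOS drought response minus WT drought response in log2 units. Among the markers this held for SEN1, at −1.08 (adjusted p = 0.00789), which fell in both genotypes. Among the list genes, JUB1 was at −1.14 (0.01), YLS9 at −1.04 (0.0142), EDS1B at −1.17 (0.0226) and WRKY47 at −0.91 (0.0225), each with a rise in the WT and no significant change in nNOS transgenic plants. RNS1 was at −1.39 (0.0209) and AKINBETA1 at −0.60 (0.0429), with a fall in both genotypes. DIN11 was at 1.09 (0.0184) and AT1G19200 at 0.74 (0.0322), with a fall in the WT, and AT5G20700 was at 0.77 (0.0186), with a rise in both. SEN1, JUB1, RNS1, YLS9 and DIN11 are named only through the study's list of changed genes. AT5G20700 and AT1G19200 were taken from the descriptions in that list. These and WRKY47 were picked after their values had been seen. Across all probe sets, 3.64% passed the same limit. SEN1, JUB1, EDS1B and DIN11 also differed significantly in nNOS drought versus WT drought. RNS1, YLS9, AKINBETA1, WRKY47, AT5G20700 and AT1G19200 did not, and they differed significantly in nNOS control versus WT control. The nNOS control arrays carried the high spike-in controls given above, whose part was not tested. RNS1 was at 3.02 to 3.76 on the drought arrays, near the lower quartile of 2.94 to 3.24 on an array. The explanations were not tested.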

How the results depend on the processing

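Of 331 alternative values for the 4 markers, 296 kept the direction and the side of an adjusted p of 0.05, 26 moved above it, 6 moved to or under it and 3 turned sign. The direction could change only with another normalization or the loss of a compared array. Calls, which also need the fold threshold, were lost in 4 and gained in 8. Without moderation, the adjusted p rose above 0.05 for SAG12 in WT drought versus WT control (1.27, adjusted p = 0.0686) and nNOS drought versus WT drought (−0.92, 0.112), for WRKY53 under drought in nNOS transgenic plants (−0.97, 0.0513) and in nNOS drought versus WT drought (−0.72, 0.144), for SEN1 in nNOS drought versus WT drought (−0.96, 0.0593) and in the difference between the responses (−1.08, 0.0792), and for SAG101 under drought in nNOS transgenic plants (−0.51, 0.212). That SAG101 difference was also above 0.05 with array weights (−0.51, 0.102). SAG101 in nNOS control versus WT control passed with quantile normalization (0.52, 0.0381) and median centring (0.51, 0.0323), and the WRKY53 difference between the responses (−0.74) passed with the filter on signal (0.0336) and with trend and robust moderation (0.0200). SAG101 gave no value under that filter. Median centring moved the median of all probe sets by 0.10 in both comparisons of nNOS with WT.

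Samples of equal replicate number did not deviate together (correlations of −0.12 to 0.123). With the replicate block, SAG101 under drought in nNOS transgenic plants was at −0.51 (adjusted p = 0.0523), no other marker changed side of 0.05, and the probe sets called were 154, 447, 490, 20 and 172, in the order drought in the WT, drought in nNOS transgenic plants, genotypes under control, genotypes under drought and difference between the responses.

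In the same order, 154, 447, 490, 20 and 170 probe sets were called as reported, and 2475, 5654, 7027, 2428 and 827 without the fold threshold. The filter on signal gave 100 for drought in the WT and 12 for the genotypes under drought, no moderation gave 1 for the genotypes under drought and 10 for the difference between the responses, and an adjusted p of at most 0.01 gave 93 for that difference. The split in nNOS control versus WT control was 221 higher and 269 lower, 303 and 186 with quantile normalization, 338 and 152 with median centring, and 353 and 139 with cyclic loess. In nNOS drought versus WT drought it was 4 and 16, then 11 and 8, 16 and 7, and 13 and 11; under drought in nNOS transgenic plants 184 and 263, and 132 and 358 with cyclic loess; for the difference between the responses 71 and 99, and 52 and 124 with cyclic loess.

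When each array was left out in turn, SAG12 ran from 1.11 to 1.43 in WT drought, 1.59 to 1.92 in nNOS drought, −1.58 to −1.24 in nNOS control versus WT control, −1.06 to −0.78 in nNOS drought versus WT drought and 0.32 to 0.65 in the difference between the responses. SEN1 ran from −1.89 to −1.72, −2.99 to −2.79, 0.10 to 0.15, −1.06 to −0.86 and −1.18 to −0.98. WRKY53 ran from −0.37 to −0.10, −1.18 to −0.76, −0.11 to 0.16, −0.93 to −0.51 and −0.95 to −0.53, with sign changes in nNOS control versus WT control without nNOS control replicate 2 (−0.08) or WT control replicate 2 (−0.11). SAG101 ran from −0.06 to 0.51, −0.61 to −0.41, 0.12 to 0.69, −0.43 to −0.23 and −1.02 to −0.45, the last passing without WT control replicate 2 (−1.02, adjusted p = 0.041), and nNOS drought versus WT control turned from −0.10 to 0.18 without WT control replicate 2 (−0.39 without replicate 1). Probe sets called ran from 153 to 177, 379 to 678, 391 to 857, 3 to 48 and 88 to 287, with 678, 857 and 287 without nNOS control replicate 1, 48 without nNOS drought replicate 1, 3 without WT drought replicate 1 and 88 without WT drought replicate 2. In such fits the lone array of a group is assumed to vary like the other groups.

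Counts of cysteine proteases moved most in nNOS drought versus WT drought, from 0 to 5 lower against 2, and those of dark-inducible genes that rose under drought in nNOS transgenic plants from 0 to 3 against 1.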

Other observations

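A further 3 genes that the study's list describes as senescence-associated were read after their values had been seen, as values only. AT5G20700 rose by 0.62 under drought in the WT (limma adjusted p = 0.00508) and by 1.38 in nNOS transgenic plants (1.06e-05), and was lower by −0.68 in nNOS control than in WT control (0.000759). These were the directions found for SAG12. In nNOS drought versus WT drought, however, AT5G20700 was at 0.09 (0.576), where SAG12 was at −0.92. AT5G11460 rose by 0.68 (0.00584) and 1.11 (0.000118) under drought, with a value of −0.19 in nNOS control versus WT control (0.243). AT1G19200 fell by 1.04 under drought in the WT (0.000408), its value in nNOS transgenic plants was −0.30 (0.0726), and it was lower by −0.41 in nNOS control than in WT control (0.0176).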
